A study of Homo sapiens
Mus musculus and Homo sapiens with 21 samples.

Results

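The 10 genes described here make, cut, bind or accompany hyaluronan in the matrix around cells: HAS2, HAS3, CEMIP, HYAL2, CD44, HAPLN1, VCAN, SDC2, SPOCK1 and SPARCL1. They are 10 of the 34058 human genes in the table of cancer cell expression, found there by symbol, and they were picked with their values in these libraries already known. For that reason their changes between the cancer cell groups are given as a description, with no p-value. Hyaluronan is a long sugar chain without sulfate that synthases in the cell membrane push out of the cell. Hyaluronidases and hyaluronan-binding depolymerases shorten it, CD44 is its main receptor at the cell surface, and link proteins pin it to versican-type proteoglycans. In brain, a hyaluronan-rich matrix of this kind fills the space between cells and forms the nets around some neurons.

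RNA was sequenced from 21 libraries in 6 groups. Cells of H2030-BrM3, a brain-seeking derivative of a human lung adenocarcinoma line, were taken from monolayer culture (3 libraries) or from subcutaneous tumours started in Matrigel (4 libraries). After injection into the heart they gave metastases in the forebrain (3 libraries) and the hindbrain (3 libraries), and tumour-free forebrain and hindbrain gave 4 libraries each. The hosts were athymic nu/nu mice, injected at 5 to 6 weeks of age, which lack most T cells. The age at collection, the number of mice and the mouse behind each library are not given in the labels, which also name the cell line for tumour-free brain. Tumours were dissected with the stroma around them, so human genes report on the cancer cells and mouse genes on the host. All cancer cells came from 1 line.

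Values are RPKM, reads scaled to gene length and library size, brought to the same sum in every library of an organism. Human reads numbered 27253282 to 49599168 in monolayer and subcutaneous libraries and 3579907 to 6897852 in metastases, where they were 4.83 to 7.52% of the library. The epithelial markers KRT8 (158 to 1419), KRT18 and EPCAM were well above 1 in every cancer cell library, but KRT7 stood at 0 to 1.46. CDH1 was low in the monolayer (0.807 to 0.976), 9.61 to 18.3 under the skin and 60.1 to 74.4 in metastases. Human rows of HAS2, HAS3, CEMIP, HYAL2, CD44, VCAN, SDC2 and SPOCK1 had 0 reads in the 8 tumour-free brain libraries, HAPLN1 had 1 and SPARCL1 had 2. At that rate mouse RNA would account for 1.91% of the HAPLN1 reads and 0.216% of the SPARCL1 reads in metastases. In mixed tissue, fewer cells of a type and less RNA per cell cannot be told apart.

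The members sit on several chromosomes (GRCh38, GENCODE 44). HAPLN1 (chromosome 5, 83637805 to 83720855, minus strand) and VCAN (chromosome 5, 83471618 to 83582303, plus strand) are neighbours, with 55501 bases between them. The stretches upstream of HAPLN1 and CEMIP are shown because these genes were among those that differed most, and in opposite directions, between tumours under the skin and in brain. They run 5′ to 3′ on the gene's strand and end at the base before the first annotated exon. Capitals mark the hypoxia core, ACGTG or GCGTG on either strand.
HAPLN1, chr5:83720856-83721105, minus strand: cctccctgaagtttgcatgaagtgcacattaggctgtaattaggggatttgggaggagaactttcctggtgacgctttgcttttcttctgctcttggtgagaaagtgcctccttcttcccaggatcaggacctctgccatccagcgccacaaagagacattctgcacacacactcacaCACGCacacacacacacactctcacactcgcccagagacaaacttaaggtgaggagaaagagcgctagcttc
CEMIP, chr15:80779120-80779342, plus strand: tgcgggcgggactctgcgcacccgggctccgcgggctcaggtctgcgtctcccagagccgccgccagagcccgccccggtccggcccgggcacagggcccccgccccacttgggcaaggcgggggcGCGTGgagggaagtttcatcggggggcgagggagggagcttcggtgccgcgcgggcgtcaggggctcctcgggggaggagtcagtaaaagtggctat
The same core occurred in the 250 bases before the canonical start of 51.3% of 20046 promoters, and also in those of HYAL2, CD44, SPOCK1 and SPARCL1. A TATA box (TATAAA) lay 30 to 25 bases before the canonical start of CEMIP and was found in 9.34% of promoters. The printed CEMIP stretch stops inside it, since the remaining bases belong to an annotated exon. The TEAD motif GGAATG (9.87% of promoters) was found for HYAL2, and the AP-1 motif TGANTCA (4.73%) for none of the 8 promoters searched. The promoters of HAS2 and SDC2 were not analysed here.

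The synthases were both higher in tumours than in culture, and they parted between the tumour sites. HAS2 encodes the synthase that makes the longest hyaluronan chains. Its level was 2.99, 3.06 and 2.74 in the monolayer, 11.4, 8.61, 10.5 and 10.6 under the skin, 21.9, 24.2 and 20.3 in forebrain metastases and 20.9, 22.1 and 29.5 in hindbrain metastases. Monolayer, subcutaneous and brain libraries did not overlap, while forebrain and hindbrain did. On the scale of log2(value + 1), HAS2 was 1.09 ± 0.10 (SE) higher in brain (n = 6) than under the skin (n = 4) and 2.61 ± 0.11 higher than in the monolayer (n = 3). HAS3 (chromosome 16, 69105653 to 69118719, plus strand) encodes a synthase of shorter chains. Its level was 4.27, 3.53 and 3.80 in the monolayer, 12.9, 12.1, 14.4 and 17.2 under the skin, 15.5, 22.9 and 11.1 in forebrain metastases and 11.6, 13.8 and 11.7 in hindbrain metastases. Every tumour library was above every monolayer library, but the tumour sites overlapped, and the log2 difference between brain and skin was 0.00 ± 0.15. The third synthase gene, HAS1, was too low to be tested.

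The balance of the synthases therefore moved. RPKM of different genes cannot be set side by side here, since the gene lengths that the values imply (560 to 4190 bases over the members) are mostly far below the exon lengths in GENCODE, but the ratio of 2 genes can be followed from group to group. HAS3 over HAS2 ran from 1.15 to 1.43 in the monolayer and from 1.13 to 1.62 under the skin. It ran from 0.544 to 0.947 in forebrain metastases and from 0.398 to 0.626 in hindbrain metastases, below every library of the other groups. The ratio thus stayed in 1 range when cells went from culture to skin and was lower in all 6 brain libraries.

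**Figure D1:**
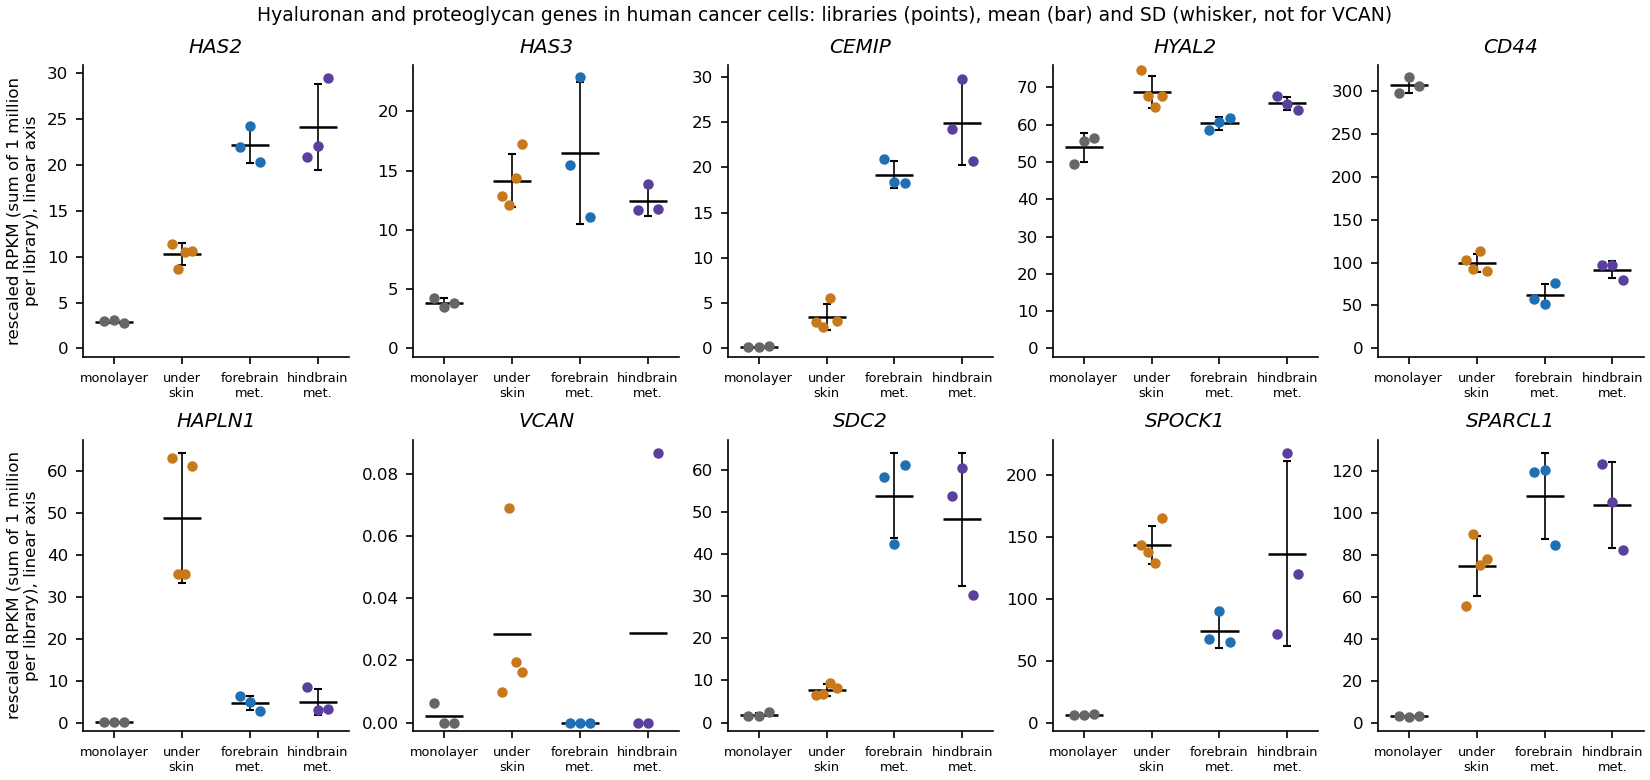
Rescaled RPKM of each of the 10 genes on linear axes, with points for libraries, bars for group means and whiskers for SD (none for VCAN, which rests on 0 to 6 reads a library). HAS2, CEMIP and SDC2 step up from monolayer to skin to brain, and HAPLN1 stands high only under the skin. CD44 steps down from monolayer to tumours and is lowest in forebrain metastases, while hindbrain metastases overlap with subcutaneous tumours.

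Of the genes that cut hyaluronan, CEMIP changed most. CEMIP (chromosome 15, 80779343 to 80951776, plus strand) encodes a secreted hyaluronan-binding protein needed for depolymerisation outside the lysosome. It stood at 0.176, 0.199 and 0.252 in the monolayer, with 27 to 33 reads a library, and at 2.94, 2.35, 5.59 and 3.04 under the skin. In forebrain metastases it stood at 20.9, 18.4 and 18.3, and in hindbrain metastases at 24.3, 29.8 and 20.7. The 3 settings did not overlap. CEMIP was 2.39 ± 0.16 higher in brain than under the skin and 1.84 ± 0.19 higher under the skin than in the monolayer, in log2(value + 1). The added 1 understates low values: the ratio of the means was 105 between brain and monolayer, against an 18.8-fold change on the log scale.

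HYAL2 (chromosome 3, 50317790 to 50322782, minus strand), the hyaluronidase anchored at the cell surface, moved least. It was 49.5, 55.7 and 56.6 in the monolayer, 74.7, 67.8, 64.7 and 67.7 under the skin, 58.5, 60.7 and 61.7 in forebrain metastases and 67.6, 65.6 and 64.0 in hindbrain metastases. The log2 difference from the monolayer was 0.34 ± 0.06 under the skin and 0.22 ± 0.06 in brain, and skin and brain overlapped. CEMIP over HYAL2 accordingly ran from 0.00356 to 0.00446 in the monolayer, 0.0347 to 0.0864 under the skin and 0.296 to 0.454 in metastases.

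**Figure D2:**
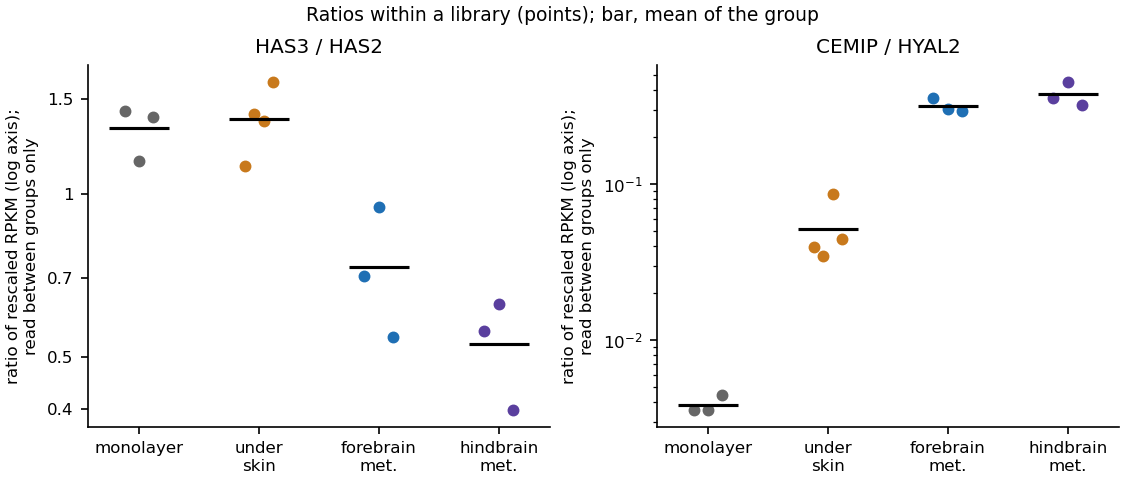
Ratio of HAS3 to HAS2 (left) and of CEMIP to HYAL2 (right) within each library, log axes, with bars for group means. HAS3 over HAS2 is at 0.398 to 0.947 in the 6 metastases and 1.13 to 1.62 elsewhere, and CEMIP over HYAL2 rises in steps from culture to skin to brain.

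CD44 went the other way. CD44 (chromosome 11, 35138882 to 35232402, plus strand) encodes the cell surface receptor that binds hyaluronan. It was 297, 316 and 306 in the monolayer, 103, 92.0, 113 and 90.2 under the skin, 57.8, 52.2 and 76.3 in forebrain metastases and 97.0, 97.6 and 80.1 in hindbrain metastases. Monolayer cells were above all tumour libraries, by 1.62 ± 0.12 over skin and 2.02 ± 0.11 over brain in log2. Hindbrain metastases overlapped with subcutaneous tumours, whereas forebrain metastases were below both, 0.56 ± 0.12 lower than hindbrain metastases. The 2 brain regions did not overlap.

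The link protein gene HAPLN1 had few reads in culture, high under the skin and low in brain. Its protein clamps hyaluronan to versican or aggrecan. The monolayer values, 0.161, 0.0948 and 0.193, rest on 3 to 7 reads a library. Under the skin HAPLN1 reached 63.1, 35.4, 35.3 and 61.3, on 837 to 2056 reads. Forebrain metastases gave 6.28, 5.02 and 2.81 and hindbrain metastases 8.55, 2.95 and 3.19, on 9 to 52 reads. None of the 3 settings overlapped. HAPLN1 was 3.13 ± 0.26 lower in brain than under the skin in log2(value + 1), and the ratio of the means was 10.2. Against the monolayer it was 5.38 ± 0.31 higher under the skin and 2.25 ± 0.29 higher in brain. With so few monolayer reads these sizes depend on the pseudocount: the ratio of the means was 326 for skin and 32.1 for brain, and a pseudocount of 0.1 gave log2 differences of 7.58 and 4.19.

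VCAN encodes versican, a large chondroitin sulfate proteoglycan that HAPLN1 links to hyaluronan. The cancer cells gave almost no reads for it: 1 in the monolayer, 12 under the skin, 0 in forebrain metastases and 1 in hindbrain metastases. Its highest value in any library was 0.0867, from 1 read. A floor of 3 reads over the 6 metastases would correspond to 0.0345, so no difference between the tumour sites was detectable at this depth. VCAN stayed below the expression filter and was the 1 member not tested.

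SDC2, a syndecan, is a heparan sulfate proteoglycan that spans the membrane. It was 1.69, 1.56 and 2.45 in the monolayer and 6.61, 6.75, 9.43 and 8.20 under the skin. In forebrain metastases it was 58.2, 42.3 and 61.0, and in hindbrain metastases 53.8, 60.4 and 30.4. Every brain library was above every subcutaneous library, and these above every monolayer library. The log2 differences were 2.54 ± 0.18 between brain and skin and 1.59 ± 0.21 between skin and monolayer.

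SPOCK1 and SPARCL1 encode secreted members of the SPARC family, SPOCK1 with glycosaminoglycan chains. SPOCK1 (chromosome 5, 136975298 to 137598379, minus strand) was 6.58, 6.04 and 6.71 in the monolayer, 143, 138, 129 and 165 under the skin, 67.8, 90.0 and 64.8 in forebrain metastases and 71.8, 218 and 119.6 in hindbrain metastases. All tumours were far above culture (4.28 ± 0.27 in log2 under the skin). The difference between brain and skin, -0.58 ± 0.23, came with overlapping groups and was -0.79 without hindbrain metastasis replicate 2, the library at 218. The difference between the brain regions, -0.74 ± 0.29, was -0.33 without that library.

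SPARCL1 (chromosome 4, 87473335 to 87531061, minus strand) was 3.25, 2.70 and 3.13 in the monolayer, 55.6, 90.1, 75.1 and 78.1 under the skin, 119.6, 121 and 84.6 in forebrain metastases and 123, 105 and 82.3 in hindbrain metastases. Culture and tumours did not overlap (4.21 ± 0.17 in log2 under the skin and 4.71 ± 0.15 in brain), while brain was 0.50 ± 0.14 above skin with overlapping values.

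Counted by an adjusted p under 0.05 from limma, 7 of the 9 members tested passed between brain and skin (50% of all genes tested did), 9 of 9 between brain and monolayer (42.9%) and 9 of 9 between skin and monolayer (52.4%). Between forebrain and hindbrain metastases CD44 alone passed (3.3% of all genes). The groups did not overlap for 4 members between brain and skin (31.7% of all genes), 9 between brain and monolayer (38.6%), 9 between skin and monolayer (67.8%) and 2, CD44 and HYAL2, between the brain regions (15.6%). The members were chosen from these comparisons, so nothing is read from these counts.

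Across the 13 cancer cell libraries, which share 4 groups and so rise and fall mostly by group, the log2 levels of CEMIP and SDC2 had a Pearson correlation of 0.985, and HAS2 and CEMIP of 0.967. CD44 ran against SPARCL1 (-0.956), and HAPLN1 had 0.134 with SDC2. Outside the 10 genes, among 10077 candidates, the pattern most like that of CEMIP was that of the neural adhesion gene CHL1 (0.991), which also stood second for SDC2 (0.989) after PAQR5 (0.991). CEMIP's next was the Notch ligand gene JAG1 (0.987). CD44 was most like the integrin gene ITGA5 (0.986) and HAPLN1 most like the cathepsin gene CTSV (0.983). HAS2 was most like SRSF8 (0.983), HAS3 like HIST1H3H (0.975), HYAL2 like EDEM2 (0.924), SPOCK1 like PALMD (0.982) and SPARCL1 like ZNF326 (0.994). For SPARCL1 the next was CHST11 (0.994), a chondroitin 4-sulfotransferase gene.

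The other genes of hyaluronan and proteoglycan metabolism were followed in 9 lists of 127 genes, of which 121 were found and 74 tested. Between brain and skin 27 rose and 23 fell, 67.6% of the 74, where 31.2% of all genes tested rose and 18.8% fell. The lists' median log2 change was 0.02, and that of all genes 0.05. Between brain and monolayer 20 rose and 19 fell (52.7%), where 21.9% of all genes rose and 21% fell. Between skin and monolayer 21 rose and 26 fell (63.5%), where 21.5% of all genes rose and 30.9% fell. Between the brain regions 2 were higher and 4 lower in the forebrain (8.11%), where 1.85% of all genes were higher and 1.45% lower. Of these 6 calls, HABP4 was lost in 13 alternative settings, GFPT2 in 7, COL18A1 in 4 and SDC3 in 1, and leaving out hindbrain metastasis replicate 1 alone ended 3 of them (GFPT2, HABP4 and COL18A1). With median-of-ratios scaling, the share of all called genes that were higher went from 62.4 to 49.5% between brain and skin and from 56.1 to 45.9% between the brain regions. The tests below are limma's with Benjamini-Hochberg adjustment over all genes. Folds are taken from log2(value + 1), so they understate changes of genes with low values and differ from ratios of the means. The lists, like the members, were put together with earlier results of these data known, so their counts and p-values are not independent evidence of a direction.

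In the degradation list, 2 of 6 genes tested rose and 2 fell between skin and brain. TMEM2, now named CEMIP2 and the transmembrane relative of CEMIP, was 100.4 ± 2.61 in the monolayer (SD, n = 3), 63.7 ± 9.18 under the skin (n = 4) and 239 ± 33.6 in brain (n = 6). It was 3.71-fold higher in brain than under the skin (adjusted p = 2.43e-09) but 1.58-fold lower under the skin than in the monolayer (adjusted p = 0.000164), where CEMIP was higher. HYAL3 rose 1.70-fold in brain against skin (adjusted p = 0.000213), and the lysosomal hexosaminidase gene HEXA fell 1.49-fold (adjusted p = 2.99e-07). The mean of HEXA was 63.6 in the monolayer, 103 under the skin and 68.8 in brain. Of 7 supply genes, 3 rose and 2 fell: GNPNAT1, of the hexosamine pathway, rose 1.51-fold (adjusted p = 2.31e-06). GFPT2, its entry enzyme, was 1.84 ± 0.368 in the monolayer and 23.9 ± 3.53 under the skin, 8.76-fold higher on the scale of log2(value + 1) (adjusted p = 8.9e-08). Over the alternatives this log2 change was 3.03 to 3.71. From monolayer to skin GFPT2 was the only 1 of the 7 supply genes called higher, and 4 were called lower. Among those 4, UAP1 fell 1.94-fold (adjusted p = 1.8e-06 by limma) and GFPT1 1.41-fold (adjusted p = 0.000997 by limma). GFPT2 was 10.4 ± 3.39 in forebrain metastases and 23.5 ± 8.21 in hindbrain metastases, so the hindbrain mean was close to that under the skin. The average of both regions was 1.53-fold lower than under the skin (log2 -0.62 ± 0.19, adjusted p = 0.0160). This call, with log2 changes of -0.62 to -0.56, was lost in 4 alternative settings, among them without subcutaneous tumour replicate 3 or 4 (adjusted p = 0.0515 and 0.0536).

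Of 4 receptor and binding genes tested, 1 rose and 2 fell in brain against skin. HMMR, an intracellular hyaluronan-binding protein of the mitotic spindle, rose 1.95-fold (adjusted p = 6.29e-07), from 34.5 ± 4.43 to 68.4 ± 10.5, and stood at 70.2 ± 3.69 in the monolayer. Of 5 secreted proteoglycans 1 rose and 4 fell. The basement membrane genes AGRN (1.69-fold, adjusted p = 2.67e-07) and HSPG2 (1.63-fold, adjusted p = 0.000303) fell, and SRGN, the proteoglycan of secretory granules, rose 1.75-fold (adjusted p = 1.85e-07). The means in monolayer, skin and brain were 401, 621 and 368 for AGRN and 83.2, 160 and 99.7 for HSPG2. For SRGN they were 660, 299 and 532, so its mean in brain stayed below that in culture. In the SPARC family, 2 of 4 rose and 2 fell. FSTL1 rose 2.24-fold (adjusted p = 3.61e-06) and SMOC1 fell 2.00-fold (adjusted p = 0.000435). The means in monolayer, skin and brain were 42.3, 20.9 and 48.1 for FSTL1 and 15.8, 36.3 and 20.1 for SMOC1. SMOC1 was also 2.57-fold lower in forebrain than in hindbrain metastases (adjusted p = 0.00703), as was SRGN by 1.45-fold (adjusted p = 0.00281).

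At the cell surface, 3 of 11 rose and 4 fell between skin and brain. SDC1, a syndecan of epithelial cells, was 82.3 ± 1.19 in the monolayer, 268 ± 30.7 under the skin and 360.5 ± 64.9 in brain. The rise was 3.21-fold from culture to skin (adjusted p = 7.3e-08) and 1.34-fold from skin to brain (adjusted p = 0.00343), against 5.83-fold for SDC2. Of 17 sulfation and editing genes, 8 rose and 3 fell in brain against skin. GLCE, the epimerase of heparan sulfate chains, rose 2.86-fold (adjusted p = 9.03e-09), from 15.1 ± 1.34 to 45.3 ± 4.92. PAPSS2, a synthase of the sulfate donor, fell 3.91-fold (adjusted p = 9.8e-07), from 28.7 ± 4.18 to 7.13 ± 3.77. Between brain and monolayer, 5 of the 17 rose and 6 fell. CHST11 (4.50-fold, adjusted p = 3.85e-10) and the sulfatase gene SULF2 (5.05-fold, adjusted p = 1.07e-07) were among those that rose from monolayer to brain. PAPSS2 had a mean of 26.1 in the monolayer, against 7.13 in brain. SULF2 had a mean of only 1.87 in the monolayer, and its log2 change was 2.27 to 2.89 over the alternatives. Of 15 genes of chain synthesis 6 rose and 3 fell between skin and brain, most of all FAM20B, a kinase of the linker (1.40-fold higher, adjusted p = 6.02e-05). Its mean was 28.5 in the monolayer, 20.6 under the skin and 29.2 in brain. Of 5 protease genes 1 rose, ADAM10, a sheddase of CD44 (1.51-fold, adjusted p = 5.92e-06), and 1 fell, MMP14 (1.46-fold, adjusted p = 1.82e-06). The mean of ADAM10 was 188 in the monolayer, 122 under the skin, 189 in forebrain and 181 in hindbrain metastases. For MMP14 the means were 911, 1201, 805 and 837 in that order.

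**Figure D3:**
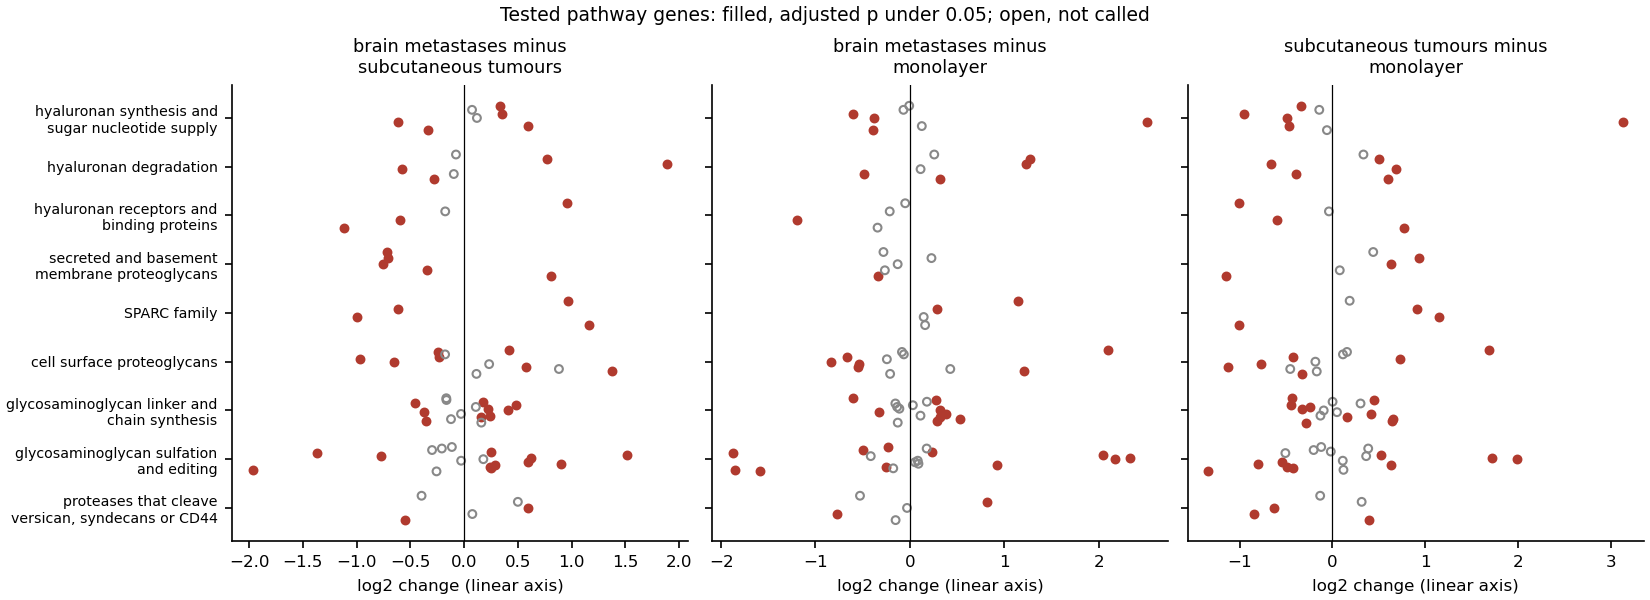
Log2 change of each tested pathway gene, by list, for 3 comparisons on linear axes; filled points have an adjusted p under 0.05 and open points do not. Called genes lie on both sides of 0 in most lists, with 27 higher and 23 lower between brain and skin.

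The share of each gene's reads that was human was taken as a guide to where its RNA came from in the mixed tissue. These are read counts, not corrected for the gene length counted in each organism. Shares away from 0 and 100% are therefore approximate. In metastases, HAS2 was human in 91.9 to 97.1% of its human and mouse reads, although human reads were 4.83 to 7.52% of those libraries. HAS3 was human in 18.7 to 50.8%, HYAL2 in 31.5 to 41.5%, CEMIP in 16.4 to 32.2% and CD44 in 12.9 to 19.7%. For SDC2 (1.76 to 5.27%), HAPLN1 (0.561 to 3.62%), SPOCK1 (0.630 to 3.63%), SPARCL1 (0.118 to 0.328%) and VCAN (0 to 0.0346%), most or all reads were mouse. Under the skin the picture differed: 99.9 to 100% of HAPLN1 and 99.7 to 100% of SPOCK1 reads were human, against 0.0829 to 0.341% of VCAN reads. In those tumours human reads were 87.8 to 95.2% of the library. The link protein transcript there was human and the versican transcript was mouse.

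**Figure D4:**
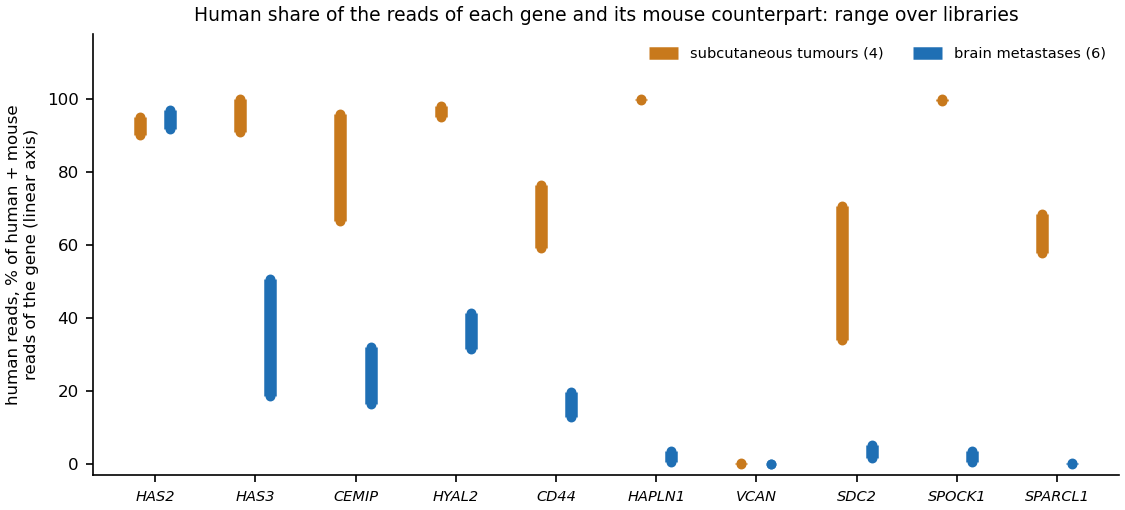
Human reads as a percentage of the human and mouse reads of each gene, as the range over 4 subcutaneous tumours and 6 brain metastases, linear axis. HAS2 is above 90% at both sites, HAPLN1 goes from near 100% under the skin to 0.561 to 3.62% in brain, and VCAN is near 0 at both.

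The mouse genes of the same names were not used to choose the members, so their response to tumour was tested, in brain with metastases (n = 3 a region) against tumour-free brain (n = 4 a region). Of 9 genes tested (Has2 was too low), 2 rose and none fell in the forebrain, where 30.4% of all mouse genes were called (14.4% higher and 16% lower). Cd44 was 5.42, 5.18, 5.14 and 5.73 in tumour-free forebrain and 11.4, 13.1 and 10.6 with tumour, 1.99-fold higher (log2 0.99 ± 0.13, adjusted p = 0.000112 by limma). Vcan was 14.9, 17.2, 14.98 and 15.5 without and 28.6, 29.4 and 20.8 with tumour, 1.62-fold higher (log2 0.70 ± 0.11, adjusted p = 0.000671 by limma). Neither gene's groups overlapped (37.9% of mouse genes had none). In the hindbrain Cd44 alone rose, 2.22-fold, from 7.43, 7.63, 7.70 and 6.18 to 16.3, 22.4 and 14.02 (log2 1.15 ± 0.13, adjusted p = 8.03e-05 by limma), where 3.25% of mouse genes were called (2.92% higher and 0.33% lower) and 12.8% had groups that did not overlap. Host Cd44 was thus higher in 6 of 6 tumour-bearing brain libraries than in any tumour-free library of its region, while the cancer cells there held less CD44 than in culture.

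Vcan in the hindbrain was 31.1, 28.6, 30.5 and 27.2 without and 29.4, 35.1 and 27.4 with tumour, overlapping groups with a log2 change of 0.06 ± 0.11 (adjusted p = 0.871 by limma). The difference of its response between the regions, 0.65 ± 0.16 in log2, did not pass (adjusted p = 0.0817 by limma), but did without forebrain metastasis replicate 3 (adjusted p = 0.0170; 0.0170 to 0.237 over all alternatives). No difference between regions was called for the 9 genes (0.456% of mouse genes were, 0.254% with a larger and 0.203% with a smaller log2 change in the forebrain). Hapln1, Sdc2, Spock1, Sparcl1, Cemip, Has3 and Hyal2 were not called in either region, with log2 changes from -0.39 (Hapln1, hindbrain) to 0.38 (Cemip, hindbrain). Hyal2 in the forebrain passed without tumour-free forebrain replicate 1 (adjusted p = 0.0388 by limma) and Spock1 there without forebrain metastasis replicate 3 (adjusted p = 0.0242 by limma).

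Markers of some host cells also differed between tumour-bearing and tumour-free brain. The summed level of 6 microglia and macrophage markers ran from 70.9 to 80.1 in tumour-free forebrain and from 145 to 210.2 with tumour, and from 43.8 to 56.1 and 86.9 to 119 in the hindbrain, with 5 of 6 genes called higher in each region. Of 5 astrocyte markers, 5 were higher in the forebrain (8796 to 10977 without, 15168 to 19494 with tumour) and 1 in the hindbrain. In the forebrain, 2 of 3 endothelial markers were higher (22.1 to 29.8 without, 31.5 to 54.5 with tumour), as was 1 of 4 markers of oligodendrocyte precursors (97.7 to 107 and 108 to 123), and 1 of 4 neuronal markers was lower (2201 to 2533 and 1799 to 2204). Of 6 fibroblast and mural cell markers there, 1 was higher and 1 lower (73.7 to 81.2 and 55.8 to 92.3), and none of 4 oligodendrocyte markers was called. In the hindbrain no marker of these other 5 lists was called. None of the microglia, macrophage and astrocyte markers was at 0 in a brain library. Their part in the change of Cd44 and Vcan was not tested.

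In subcutaneous tumours, where 6 fibroblast and mural cell markers summed to 21529 to 44012, host Vcan stood at 153, 232, 201 and 178 and host Cd44 at 207, 197, 268 and 191. The haemoglobin gene Hbb-bs alone took 14.8% of the mouse total in replicate 3 of these tumours, which lowers the other values of that library. Host Has2 was 4.42 to 13.3 there and 0.0713 to 0.207 in metastases. Host Hapln1 gave 2 reads over the 4 subcutaneous tumours. Monolayer libraries should hold no mouse RNA, yet replicate 2 gave 23 reads of Sparcl1, 3 of Spock1 and 1 of Cd44, among 16524 mouse reads.

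**Figure D5:**
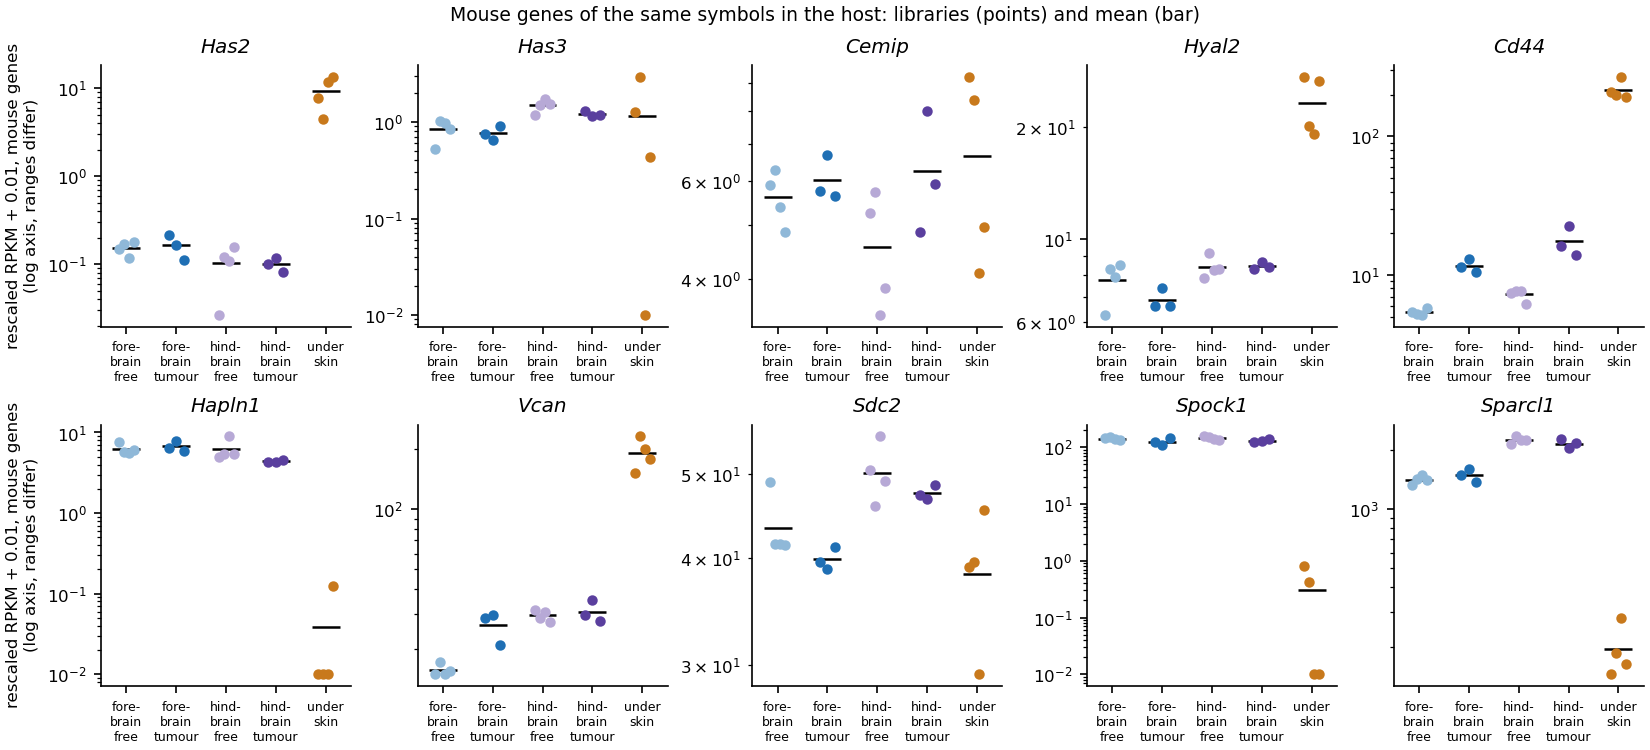
Rescaled RPKM + 0.01 of the mouse genes with the same symbols in the 5 tissue groups (log axes with different ranges), with points for libraries and bars for means. Cd44 is higher with tumour in both regions, Vcan in the forebrain, and Hapln1 and Spock1 are near 0 in the host tissue of subcutaneous tumours.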

How the data were processed

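Human and mouse genes were measured in 21 libraries of total RNA. The deposited values are RPKM computed by the authors, with hg38 and mm10 (GRCh38 and GRCm38) as builds per the submitters' processing notes; no source used here names the aligner or counter. Within each organism, all libraries were rescaled to the same RPKM sum. Values entered as log2(value + 1) and were fitted with limma 3.58.1 in R 4.3.3 (trend, robust), in 1 fit of 13 libraries for human and 1 of 14 for mouse genes. Genes at 1 or more in 3 or more libraries were tested (14557 human, 15777 mouse), with two-sided p-values adjusted by Benjamini and Hochberg over all genes tested. Brain means the average of both brain regions. Reads were recovered from the steps of the RPKM values, and a step was found for 100% of genes above 0. A step was accepted only if all values of the gene were whole within 0.02, so wholeness is no check of the recovery. The recovered totals kept to the library scales within 0.0654% for human and 0.0555% for mouse. Floors of 3 reads cover counting error only. The fits and the read recovery were tested on simulated data.

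The members and lists were chosen with earlier results of these data known. Named genes were all members, their mouse counterparts, up to 3 called genes per list and comparison with a mean of at least 5, and the 2 genes most like each member. The labels do not say which libraries share a mouse or culture, so p-values measure the spread between these samples, which may be technical. Same-numbered forebrain and hindbrain metastases deviated together in mouse genes (correlations of 0.238 to 0.437, other pairs -0.320 to -0.0397). In human genes these correlations were small (0.0441 to 0.0662) but above those of all other pairs (-0.0555 to 0.0107). The main fits took the libraries as unpaired. The 6 metastases may therefore stand for fewer mice, and their SEs and p-values may be too small. Alternatives were a pseudocount of 0.1, no filter, median-of-ratios scaling, a replicate block, voom on recovered reads, subtraction of reads expected from the other organism, metastases averaged by number, and each library left out. A block within tumour status was added after seeing the data. Python 3.11.15, NumPy 2.4.6, pandas 2.3.3 and matplotlib 3.10.9 were used.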

Additional observations from a re-analysis of the deposited data

Results flagged for a closer look

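Of 40 gene and group pairs of 4 libraries, 4 had 1 library far from the other 3, and chance alone gives about 1 in 20 pairs. VCAN in subcutaneous tumours was 0.0689 in replicate 2 (6 reads) and 0.00997 to 0.0195 in the others. Mouse Hapln1 in subcutaneous tumours was 0.115 in replicate 4 (2 reads) and 0 in the others. Mouse Hapln1 in tumour-free hindbrain was 8.93 in replicate 3 and 4.97 to 5.44 in the others. Mouse Sdc2 in tumour-free forebrain was 48.9 in replicate 1 and 41.4 to 41.5 in the others.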

How the results depend on the processing

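No change reversed among the 2714 values recomputed under other settings for the members, the named pathway genes and the mouse genes, where reversal was judged only for called changes. Over its alternatives CEMIP in brain against skin was 2.27 to 2.68 in log2, HAPLN1 -3.39 to -2.99, SDC2 2.45 to 2.69 and HAS2 1.01 to 1.16. Between the brain regions HAPLN1 ran from -0.20 to 0.44, so it had no stable direction. The human genes called between the brain regions were 481, and 204 without a filter, 295 with a replicate block and 100 with voom. The mouse genes called for the difference between regions were 72, and 30 without a filter, 173 with voom, 90 with a replicate block and 50 with the block within tumour status. Host Vcan's difference between regions did not pass under either block (adjusted p = 0.0757 and 0.0652 by limma), and the block changed no call of the mouse genes. It ended the call of GFPT2 between brain and skin (adjusted p = 0.0826) and those of GFPT2 (0.0731) and HABP4 (0.0688) between the brain regions. SPOCK2 between brain and monolayer lost its call in 7 settings. Leaving out 1 library gave 6187 to 7548 human calls between brain and skin, 4712 to 6578 between brain and monolayer, 6349 to 8016 between skin and monolayer and 263 to 735 between the brain regions. For mouse genes it gave 2353 to 4996 in the forebrain, 291 to 804 in the hindbrain and 12 to 343 for the difference. Pathway calls ran from 47 to 52, 33 to 44 and 41 to 51 in the same order. Human depth in metastases limits HAPLN1 (9 to 52 reads a library) and VCAN most.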
